A study of Mus musculus with 12 samples.

Results

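The transcripts of 9 genes that place T cells in the T cell zone or the follicle, or let them leave a lymph node, were followed in transferred follicular helper T (Tfh) cells. They were taken by symbol from the table of counts, which lists 24561 genes, and all 9 passed the expression filter that left 12719 genes for testing. Cxcr5, Ccr7, Cxcr3, Cxcr4, S1pr1 and S1pr2 encode chemoattractant or lysophospholipid receptors that respond to gradients in lymphoid tissue, Gpr183 encodes the oxysterol receptor EBI2, Selplg encodes the selectin ligand PSGL-1, and Klf2 encodes a transcription factor that drives egress and homing genes.

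As background, a naive helper T cell stays in the T cell zone through CCR7, which reads CCL19 and CCL21, and leaves the node when S1PR1 senses sphingosine 1-phosphate in lymph. An activated cell that becomes a Tfh cell gains CXCR5, the receptor for the follicular chemokine CXCL13, and lowers CCR7 and PSGL-1. EBI2 draws activated cells to the outer follicle and the border with the T cell zone, and S1PR2 holds mature Tfh cells in the germinal center. KLF2 binds and activates S1pr1, is itself lowered after antigen receptor and ICOS signals, and opposes the Tfh program.

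The cells were OT-II T cells, which carry a transgenic receptor for an ovalbumin peptide, on the C57BL/6 strain. Cells labelled wild-type carried the CD4-Cre transgene, which is active in T cells, and cells labelled BCL6-insufficient carried CD4-Cre with 1 floxed Bcl6 allele (CD4-CrexBcl6fl/+), so both groups shared the Cre. Recipients were CD45.1 Sap-/- mice, whose own T cells support follicular responses poorly, immunized with NP-OVA and LPS in alum. On day 3, CXCR5hiPD-1hi cells were sorted from the draining lymph nodes of 3 recipients per label, and 2 technical repeats of about 200 cells per mouse gave 12 libraries. The number of donor mice and the ages are not given in the sources used here, so p-values cover the spread between recipients and a donor and its label cannot be told apart. The comparison asks whether 1 lost Bcl6 allele goes with other levels of positioning transcripts in sorted Tfh cells.

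Libraries held 3343375 to 8315722 counts, and the shallowest was repeat 1 of BCL6-insufficient mouse 3. The count of the targeted gene went against the labels. Bcl6, the transcriptional repressor that defines Tfh cells, stood at 150.0, 146 and 150.0 normalized CPM (counts per 1000000 counts of the library size scaled by TMM) in the 3 mice labelled BCL6-insufficient and at 54.8, 75.6 and 56.9 in the wild-type mice, a log2 fold change of 1.25 (SE 0.121, adjusted p = 6.3e-07, edgeR quasi-likelihood test, Benjamini-Hochberg). A count per gene does not separate the floxed exons from the rest, and every direction given here rests on the labels. All 10 T cell markers were measured at high levels, from 151 to 7307 CPM in single mice. B cell markers summed to 568 to 785 CPM under the BCL6-insufficient label and 666 to 920 under wild-type, but Ighm alone made up 499 to 600.5 and 588 to 765 of these sums. Other B cell transcripts set 2 mice apart, BCL6-insufficient mouse 2 and wild-type mouse 3: Cd74 stood at 52.3 and 37.8 CPM there against 4.22 to 11.4 in the other 4 mice, and Igkc at 13.1 and 11.0 against 0.0889 to 1.85. Without the first of these mice S1pr1 gave a log2 fold change of 0.63 (adjusted p = 0.00139) and Cxcr5 -0.46 (adjusted p = 0.00784), and without the second they gave 0.68 (adjusted p = 0.000459) and -0.42 (adjusted p = 0.0114), whereas the call for Gpr183 was lost without either (0.25, adjusted p = 0.119, and 0.29, adjusted p = 0.0744). Myeloid markers summed to 16.0 to 45.3 against 9.25 to 13.8 CPM, with no overlap. Of the 15 in the table, Lyz2 and Csf1r (8.3 to 9.62 against 4.95 to 5.87) were higher without overlap, Zbtb46 (0 to 0.218 against 0.601 to 1.28) was lower, and Cd14 was at 0 in all 6 mice; S100a8 was at 13.99 in BCL6-insufficient mouse 2 and at 0 in the others. CD8 T, NK and innate lymphoid markers summed to 29.4 to 41.0 against 30.8 to 42.3, but Cd8b1 alone made up 21.1 to 31.9 and 26.4 to 39.6 of these sums. Cd8a stood at 0.15 CPM or less in every mouse. Nkg7 stood at 2.18 to 9.36 against 0.733 to 3.15, with overlap, so the sums do not show equal levels of the other markers. Fewer cells that carry a transcript and less of it per cell cannot be told apart in libraries of this kind.

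Of the 9 genes, 2 rose under the BCL6-insufficient label and 1 fell. S1pr1, the egress receptor, rose 1.54-fold, Gpr183, the outer-follicle receptor, rose 1.22-fold, and Cxcr5, the follicle-homing receptor, was 1.32-fold lower. Klf2, Ccr7, S1pr2, Selplg, Cxcr4 and Cxcr3 did not pass the test. Across all tested genes 18.0% were called, 9.17% higher and 8.82% lower, which is the background for these 3 calls. The split over all genes was 1166 higher and 1122 lower, and 390 higher and 915 lower when limma on log2(TPM + 1) replaced edgeR on the counts, so that unit and test changed together.

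**Figure D1:**
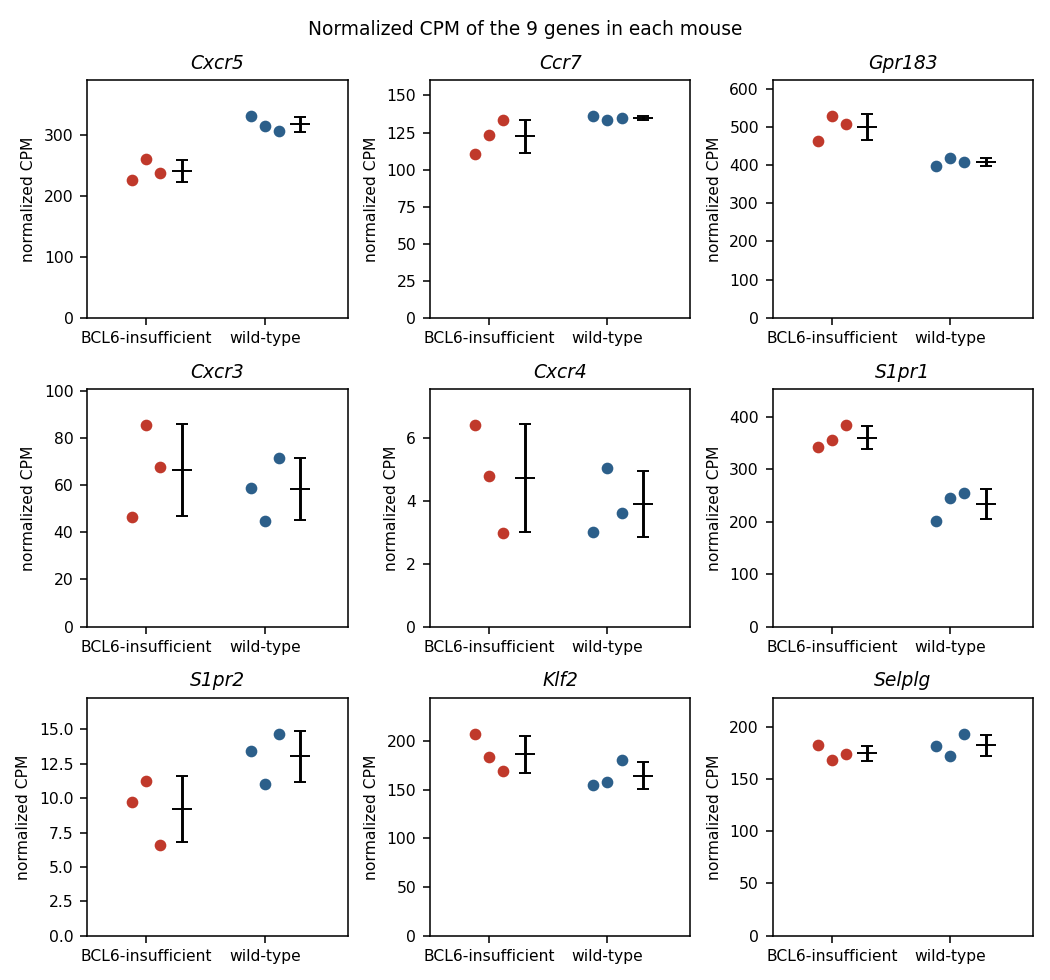
Normalized CPM (y axis, from 0) of each gene in the 3 mice labelled BCL6-insufficient (red) and the 3 labelled wild-type (blue), with the mean and SD in black. The 3 red points lie above the 3 blue ones for S1pr1 and Gpr183 and below them for Cxcr5 and, by a narrow gap, Ccr7; they overlap in the other panels.

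Promoter sequence was at hand for 5 of the 9 genes (Gpr183, Klf2, Cxcr4, S1pr2 and Cxcr3) in the RefSeq table of GRCm38.p6; Cxcr5, Ccr7, S1pr1 and Selplg had no entry. The 250 bases before the start are shown for Gpr183, the only called gene with an entry, and for Klf2, the transcription factor of the group. Capitals mark matches to any of 4 motifs searched on both strands: the KLF core CACCC, the E box CANNTG, the BCL6- and STAT-like TTCNNNGAA, and the MEF2 box, searched by its usual consensus.

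Gpr183 (chr14:121965194-121965443, minus strand): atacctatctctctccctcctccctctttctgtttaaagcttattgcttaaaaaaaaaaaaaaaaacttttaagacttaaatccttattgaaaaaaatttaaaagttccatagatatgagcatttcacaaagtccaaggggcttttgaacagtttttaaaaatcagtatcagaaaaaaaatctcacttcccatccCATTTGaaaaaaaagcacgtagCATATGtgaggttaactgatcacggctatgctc

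Klf2 (chr8:72318812-72319061, plus strand): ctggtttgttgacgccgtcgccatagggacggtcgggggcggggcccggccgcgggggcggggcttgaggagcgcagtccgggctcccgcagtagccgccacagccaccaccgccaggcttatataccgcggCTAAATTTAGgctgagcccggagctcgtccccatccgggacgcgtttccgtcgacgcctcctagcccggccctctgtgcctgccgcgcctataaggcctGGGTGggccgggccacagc

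The Gpr183 window held 2 E boxes, of which the nearer began 33 bases before the start, and no match to the other motifs. Its GC content was 32.0% with 2 CpG dinucleotides, against 71.2% and 29 in the Klf2 window. The Klf2 window held a MEF2 box that began 118 bases before the start, a motif found in 0.51% of the 32851 promoter windows of the same length. It also held 1 KLF core on the minus strand, 19 to 15 bases before the start, as did 52.0% of all windows in some position. The RefSeq start used here lies downstream of the GENCODE start of Klf2, so the last 29 bases of its window, this KLF core included, are within the gene as GENCODE annotates it; for Gpr183 the overlap was 2 bases. E boxes were in 66.2% of windows. The BCL6- and STAT-like motif was in 7.02% of windows and in none of the 5 listed here, which says only that these letters are absent from the 250 bases. The S1pr2 window, 59.2% GC, held 4 E boxes and 1 KLF core.

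Cxcr5 (ENSMUSG00000047880.15, protein coding, chromosome 9 of GRCm38 from 44511787 to 44561877, minus strand) was the member that fell. Its normalized CPM was 225, 260.2 and 237 in the BCL6-insufficient mice and 330.1, 314 and 307 in the wild-type mice. No BCL6-insufficient mouse reached the lowest wild-type mouse. The log2 fold change was -0.40 (SE 0.0934, 95% interval -0.59 to -0.20, adjusted p = 0.00476), and the exact two-sided permutation p over the 6 mice was 0.1, the smallest that 3 against 3 allow. CXCR5 protein was part of the sort gate, so every cell entered with a high surface level, and the transcript was read within that gate. The 2 repeats gave -0.42 (adjusted p = 0.0472) and -0.38 (adjusted p = 0.0277). With trends of GC content and transcript length removed, the Cxcr5 difference was -0.27 (adjusted p = 0.0422, edgeR), its smallest size over the 23 alternatives. Its annotated exons share 110 bases with exons of Bcl9l on the other strand, and the SMART-Seq2 protocol does not mark strand; Bcl9l itself stood at 0.21 on the log2 scale (SE 0.132, adjusted p = 0.314).

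Ccr7 (chromosome 11, 99144196 to 99155077, minus strand), the T zone receptor that counters CXCR5, did not pass the test. Ccr7 stood at 110.8, 123.6 and 133.1 normalized CPM in the BCL6-insufficient mice and at 135.8, 133.4 and 134.9 in the wild-type mice. The groups did not overlap, but the nearest mice, at 133.1 and 133.4, lay close together. Its difference was -0.14 on the log2 scale with a 95% interval from -0.35 to 0.08 (adjusted p = 0.395), so changes of that extent in either direction were not resolved, and it was -0.30 with limma on log2(TPM + 1) (adjusted p = 0.0852). The log2 ratio of Cxcr5 to Ccr7 counts within a mouse, which needs no scaling between libraries, was 0.98 ± 0.127 (SD, n = 3) against 1.23 ± 0.0473, with no overlap between the labels and an exact permutation p of 0.1. Mice did not overlap for 4 of the 9 genes (Cxcr5, Ccr7, Gpr183 and S1pr1), as for 34.4% of all tested genes.

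Gpr183 (ENSMUSG00000051212.8, chromosome 14, 121952551 to 121965195, minus strand) had the highest level of the group. Its normalized CPM was 463, 528 and 509 in the BCL6-insufficient mice and 397, 419 and 409 in the wild-type mice. Each BCL6-insufficient mouse lay above each wild-type mouse. The log2 fold change was 0.29 (SE 0.0888, 95% interval 0.11 to 0.47, adjusted p = 0.0249). This call was the least firm of the 3: it held in repeat 1 alone (0.52, adjusted p = 0.0109), whereas repeat 2 alone gave 0.15 (adjusted p = 0.418). It was lost without BCL6-insufficient mouse 2 (0.25, adjusted p = 0.119) and without wild-type mouse 1 (0.26, adjusted p = 0.104), 2 (0.30, adjusted p = 0.0672) or 3 (0.29, adjusted p = 0.0744).

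Cxcr3 (chromosome X, 101731535 to 101734269, minus strand), a receptor of type 1 helper cells for interferon-induced chemokines, varied most between mice of 1 label among the well-expressed genes. Mouse values were 46.4, 85.3 and 67.5 normalized CPM in the BCL6-insufficient mice and 58.9, 44.9 and 71.4 in the wild-type mice, so both labels covered much the same range. The Cxcr3 difference was 0.18 on the log2 scale (95% interval -0.19 to 0.55, adjusted p = 0.533), and it turned to -0.04 without BCL6-insufficient mouse 2. Cxcr4 (chromosome 1, 128588199 to 128592293, minus strand), the CXCL12 receptor that draws cells to the dark zone, had only 6 to 48 counts per library. Its normalized CPM was 6.41, 4.81 and 2.98 against 3.02, 5.07 and 3.60, and the interval of -0.53 to 1.10 around a log2 fold change of 0.29 (adjusted p = 0.672) was too wide for any but a large difference to be detectable at this depth.

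S1pr1 (ENSMUSG00000045092.8, chromosome 3, 115710433 to 115715072, minus strand) showed the largest of the called changes. Its normalized CPM was 342, 355 and 383 in the BCL6-insufficient mice and 202, 246 and 255 in the wild-type mice. The lowest BCL6-insufficient mouse stood well above the highest wild-type mouse. The log2 fold change was 0.62 (SE 0.101, 95% interval 0.41 to 0.83, adjusted p = 0.000176), the exact permutation p was 0.1, and the call held without any single mouse (0.52 to 0.68). The S1pr1 call was made in repeat 2 alone (0.94, adjusted p = 5.96e-06) and not in repeat 1 alone (0.24, adjusted p = 0.336). The direct edgeR test of the difference between repeats, given below, did not pass adjustment (adjusted p = 0.205).

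S1pr2 (chromosome 9, 20962361 to 20976781, minus strand), which signals for confinement where S1PR1 signals for exit, was a low-level transcript with 26 to 145 counts per library. The mice had 9.75, 11.3 and 6.58 normalized CPM of it in the BCL6-insufficient label and 13.5, 11.0 and 14.6 in wild-type, with a single pair of mice crossing. Between the labels S1pr2 differed by a log2 value of -0.50 (95% interval -1.02 to 0.03, adjusted p = 0.186), by -0.12 in repeat 1 alone (adjusted p = 0.899) and by -0.85 in repeat 2 alone (adjusted p = 0.113). Per mouse, the log2 ratio of S1pr1 to S1pr2 counts was 5.32 ± 0.474 against 4.17 ± 0.288 and did not overlap (exact permutation p = 0.1). S1pr1 by itself did not overlap either, so this ratio adds no separate result. S1pr4, another sphingosine 1-phosphate receptor of T cells and no member of the group, fell by 0.51 on the log2 scale (adjusted p = 0.00207), from 155, 145 and 184 CPM in the wild-type mice to 107, 114 and 119. The log2 ratio of S1pr1 to S1pr4 was accordingly 1.67 ± 0.0217 against 0.54 ± 0.196; this ratio was chosen after the values were seen. S1pr3 was below the expression filter.

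Klf2 (ENSMUSG00000055148.7, chromosome 8, 72319033 to 72321656, plus strand) did not pass the test over the summed repeats. Its normalized CPM was 207, 183 and 169 in the BCL6-insufficient mice and 155, 158 and 181 in the wild-type mice, and the ranges overlapped. The log2 fold change was 0.18 (SE 0.104, 95% interval -0.03 to 0.40, adjusted p = 0.251). The log2 ratio of S1pr1 to Klf2, a target over its activator, was 0.95 ± 0.226 against 0.50 ± 0.13 and did not overlap, as S1pr1 by itself did not. With trends of GC content and transcript length removed, the Klf2 difference was 0.34 (adjusted p = 0.0266) and passed, whereas with the deposited TPM, as log2(TPM + 1), it was 0.0049 (adjusted p = 0.985).

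The 2 repeats gave Klf2 differences of opposite sign. In repeat 1 its normalized CPM was 182, 157 and 108 in BCL6-insufficient mice 1 to 3 and 195, 175 and 186 in the wild-type mice. In repeat 2 it was 223, 221 and 199.6 against 117, 144 and 177. Klf2 was higher in repeat 2 than in repeat 1 in 3 of 3 BCL6-insufficient mice and in 0 of 3 wild-type mice, so the labels did not overlap within repeat 2 and overlapped within repeat 1. Between the labels Klf2 differed by -0.30 on the log2 scale in repeat 1 (adjusted p = 0.245) and by 0.56 in repeat 2 (adjusted p = 0.00569).

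The difference between these effects, fitted with edgeR on the 12 libraries with the mouse as a term, was 0.91 (SE 0.193, 95% interval 0.52 to 1.30, adjusted p = 0.0397). Only 12 of 12719 genes (0.0943%) passed this test, and 960 had an unadjusted p under 0.05. Klf2 ranked 11 among the 12, and the difference, repeat 2 minus repeat 1, was above 0 for all 12. The sources used here do not say whether a repeat number marks a sort or run shared between mice; if it does not, this difference has no common meaning across them. Named after their values were seen, the others included Gm23935 (1.63, adjusted p = 0.00127), CT010467.1 (0.63, adjusted p = 0.00142), the immediate early genes Egr1 (1.66, adjusted p = 0.00142) and Jund (1.42, adjusted p = 0.0138), and Midn (2.19, adjusted p = 0.0397). CT010467.1 took 12.03% to 16.6% of the counts of a BCL6-insufficient library and 15.5% to 20.9% of a wild-type one in repeat 1, and 15.7% to 17.1% against 12.7% to 15.05% in repeat 2. With it left out of the library sizes, an alternative chosen after seeing the data, the Klf2 difference was 0.91 (adjusted p = 0.042). The call for Klf2 was lost without BCL6-insufficient mouse 3 (0.75, adjusted p = 0.391), whose repeat 1 was the shallowest library, without BCL6-insufficient mouse 2 (0.94, adjusted p = 0.0713), and without wild-type mouse 1 (0.73, adjusted p = 0.232) or 2 (0.95, adjusted p = 0.122).

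**Figure D2:**
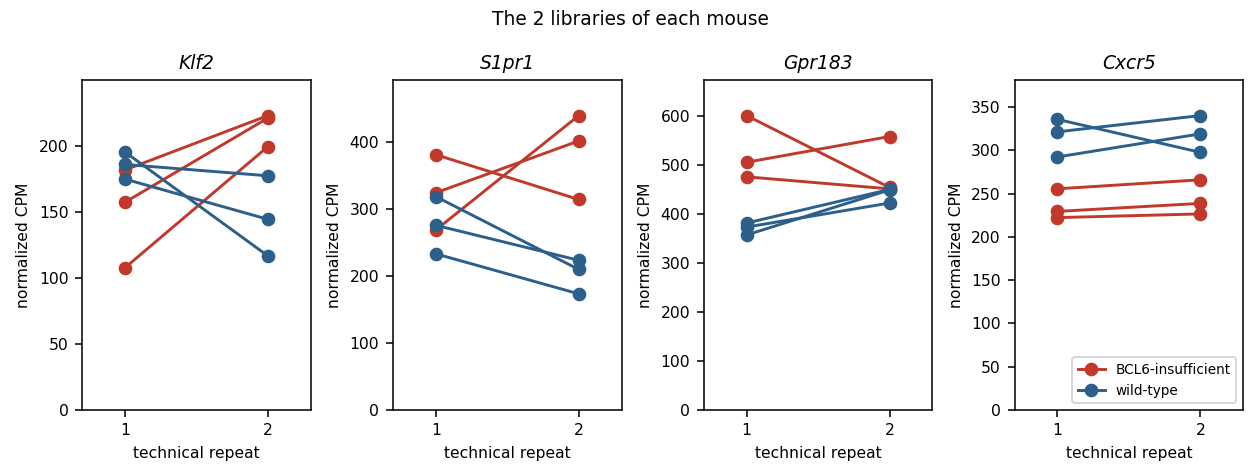
Normalized CPM (y axis, from 0) of Klf2, S1pr1, Gpr183 and Cxcr5 in technical repeats 1 and 2 (x axis), with a line joining the libraries of 1 mouse; red, BCL6-insufficient, and blue, wild-type. Klf2 lines rise in all 3 red mice and fall in all 3 blue mice, and the Cxcr5 colors stay apart in both repeats.

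The same comparison for S1pr1 gave a difference of 0.69 (95% interval 0.31 to 1.07), with an unadjusted p of 0.000725 that did not survive adjustment (adjusted p = 0.205). S1pr1 was lower in repeat 2 in 3 of 3 wild-type mice and higher in 2 of 3 BCL6-insufficient mice. For Gpr183 the difference ran the other way, -0.36 (95% interval -0.68 to -0.04, adjusted p = 0.600). The difference for Cxcr5 was 0.04 (95% interval -0.29 to 0.36, adjusted p = 0.981), and the remaining 5 genes had adjusted p-values above 0.8. In the shallowest library, Klf2 (108 CPM) and S1pr1 (268) had the lowest values of their label and Gpr183 (601) the highest; with that mouse represented by its repeat 2 only, S1pr1 gave 0.69 (adjusted p = 0.000307), Klf2 0.26 (adjusted p = 0.0981) and Gpr183 0.24 (adjusted p = 0.0826). Why the repeats differ was not tested.

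**Figure D3:**
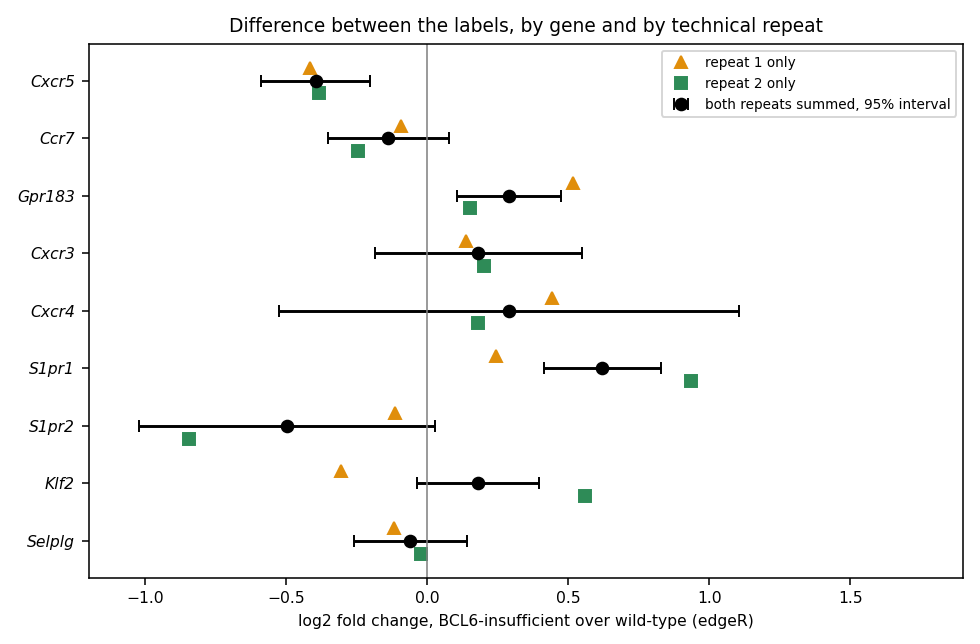
Log2 fold change (x axis, BCL6-insufficient over wild-type) of each gene with both repeats summed (black, 95% interval), with repeat 1 only (orange triangles) and with repeat 2 only (green squares). Klf2 is at -0.30 in repeat 1 and 0.56 in repeat 2, whereas Cxcr5 is at -0.42 and -0.38.

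Selplg (chromosome 5, 113818536 to 113832644, minus strand), whose product binds selectins and also restrains helper cells, did not differ beyond its spread. Normalized CPM of Selplg was 182, 168 and 174 in the BCL6-insufficient mice and 181, 172 and 193 in the wild-type mice. Its log2 difference was -0.06 with a 95% interval of -0.26 to 0.14 (adjusted p = 0.724), the narrowest bound on any uncalled gene of the group, and it was 0.02 with GC and length trends removed.

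Levels of different genes were compared per length, as normalized CPM per kilobase of exon, which is a level and not a difference. Gpr183 came first under both labels, at 173 ± 11.6 (SD, n = 3) in BCL6-insufficient and 141 ± 3.72 in wild-type mice. In wild-type mice Cxcr5 (95.1 ± 3.56) and Klf2 (89.1 ± 7.61) followed with overlapping ranges, then S1pr1 (76.8 ± 9.26) and Ccr7 (68.1 ± 0.608), which also overlapped. In BCL6-insufficient mice S1pr1 (118 ± 6.96) came second, above Klf2 (101 ± 10.2), and Cxcr5 (72.3 ± 5.31) came next, with no overlap between any of these neighbours. The gap between S1pr1 and Klf2 was narrow, at 112.2 and 112.0 in BCL6-insufficient mouse 1. Repeat 2 of that mouse had the other order (S1pr1 103.0, Klf2 120.8). Selplg and Cxcr3 followed at 42.6 ± 2.43 and 33.7 ± 7.66 in wild-type mice and overlapped each other under both labels. Cxcr4 and S1pr2 were the lowest under both labels, at 2.62 ± 0.948 and 1.15 ± 0.301 in BCL6-insufficient and 2.16 ± 0.583 and 1.64 ± 0.232 in wild-type mice, and overlapped each other in wild-type mice alone. Within a mouse, the log2 ratio of S1pr1 to Cxcr5 counts was 0.58 ± 0.123 in BCL6-insufficient and -0.44 ± 0.233 in wild-type mice, and that of Gpr183 to Cxcr5 was 1.05 ± 0.0418 against 0.37 ± 0.0856. The genes in both ratios were already called in opposite directions, so the ratios restate those calls. Among the 12586 tested genes with a length, Ccr7 stood at percentile 93.4 and Gpr183 at 97.1, with Cxcr5, Klf2 and S1pr1 between them.

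**Figure D4:**
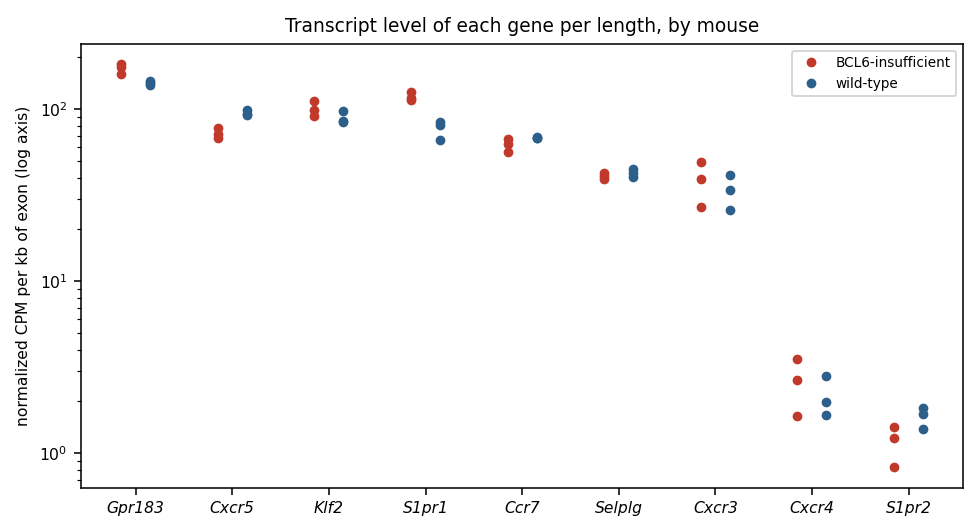
Normalized CPM per kilobase of exon (log axis) of each gene in each mouse, ordered by the wild-type mean; red, BCL6-insufficient, and blue, wild-type. Gpr183 is highest under both labels, S1pr1 lies above Cxcr5 in every red mouse and below it in every blue mouse, and Cxcr4 and S1pr2 lie far below the other 7 genes.

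The genes whose log2 CPM moved most like a member's within each label were found over the 12 libraries from 6 mice among 7833 genes, as Pearson correlations that include differences in library depth. For S1pr1 they were Paxip1 (0.92), Midn (0.91) and Abcc4 (0.90), and for Klf2 they were Plekhf2 (0.88), Jund (0.88) and Nsmce4a (0.87). For Gpr183 they were Rrad (0.89), Ddx3x (0.87) and Xrcc5 (0.87), and for Cxcr5 Ephb6 (0.86), Rfxank (0.84) and Jmjd4 (0.83). Midn and Jund were also among the 12 genes whose label effect differed between repeats, which uses the same libraries. Of the 36 pairs of members, the coefficients of largest size were those of Klf2 with S1pr1 (0.69), Klf2 with Selplg (0.64), Klf2 with Gpr183 (-0.61), Gpr183 with S1pr1 (-0.59) and Cxcr5 with Cxcr3 (0.58).

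Other receptors for chemokines and related attractants were mostly low: of 37 listed genes 13 could be tested, with a median log2 fold change of -0.25 against 0.01 over all genes. By edgeR, 9.17% of all tested genes were called higher and 8.82% lower. None of the 13 receptors was called higher by edgeR or DESeq2, and 1 had an unadjusted p under 0.05 in that direction. A single one, Ccr10, fell by 1.04 (SE 0.354, adjusted p = 0.0438), but its mice overlapped (16.2, 6.91 and 10.4 CPM against 40.4, 19.9 and 9.24), and DESeq2 did not call it. No gene of the list was called lower without BCL6-insufficient mouse 2 or 3 or wild-type mouse 1 or 2, and 1 was called higher without BCL6-insufficient mouse 1 or wild-type mouse 3. Gpr18 (0.38, adjusted p = 0.0894) and Gpr174 (0.31, adjusted p = 0.247), attractant receptors of activated lymphocytes, did not pass. In the list for sphingosine 1-phosphate and oxysterol handling, 11 genes were tested (median -0.13) and S1pr4 was the 1 called; none was called higher by either tool, and 1 had an unadjusted p under 0.05 in that direction. The lyase Sgpl1 (-0.33, adjusted p = 0.214) and the phosphatase Plpp1 (0.60, adjusted p = 0.112) did not pass. Of 23 ligands and stromal genes 11 were among the counted genes and 1 was testable, the adhesion gene Pecam1 (-0.25, adjusted p = 0.177, edgeR). Pecam1 stood at 56.5 to 87.3 CPM, whereas Cdh5 and Dcn were at 0 and Cxcl13 at 1.46 or less in every mouse. Its level is therefore not read as a sign of stromal cells.

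Among 39 tested genes that carry or end chemokine receptor signals, 6 rose and 4 fell (median 0.01), beside 9.17% higher and 8.82% lower over all genes. The rises were 3 in repeat 1 alone, 2 with limma on log2(TPM + 1), and 0 with TPM and no filter on low values, where the falls were 0 too. The largest fall was in Rhoa, the small GTPase that drives cell contraction, by 1.02 (adjusted p = 2.24e-06), from a mean of 324 to 160 CPM. Arhgef1, the exchange factor through which S1PR2 activates RhoA, fell by 0.43 (adjusted p = 0.00259), and the inhibitory G protein subunit Gnai3 by 0.60 (adjusted p = 0.000655). Rgs1, which ends G protein signals of chemokine receptors, rose by 0.82 on the log2 scale (adjusted p = 0.00707), the G protein subunit Gng5 by 0.56, and Dock2, a Rac activator in lymphocyte migration, by 0.50 (adjusted p = 0.00186). Grk2 (0.46) and Grk6 (0.39) were next among the rises, Grk2 and Grk6 being kinases that desensitize such receptors, and Rgs3 fell by 0.64.

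In the list for egress and lymph node homing, 2 of 26 tested genes rose and 6 fell (median -0.01). Cd69, whose product removes S1PR1 from the cell surface, rose by 0.60 (SE 0.180, adjusted p = 0.0216), the same direction as the S1pr1 transcript. The membrane linkers Ezr (-0.52, adjusted p = 0.000711) and Msn (-0.38, adjusted p = 0.00368), the adhesion receptor Cd44 (-0.52), the actin regulator Coro1a (-0.33) and the GTPase Rap1a (-0.45) fell, and Rap1b (0.32) rose. The 2 rises were not firm: 0 genes of the list were called higher without BCL6-insufficient mouse 1, without wild-type mouse 3, in repeat 2 alone or with TPM, and 1 gene was called without wild-type mouse 2. In the list for selectin ligand glycosylation and sulfation, 2 of 21 tested genes rose and 1 fell (median 0.28). For this list and the one before, the shares over all genes were 9.17% higher and 8.82% lower. The called genes of the selectin ligand list were Spn, which encodes the selectin-binding sialomucin CD43 (0.86, adjusted p = 2.32e-05), the galactosyltransferase gene B4galt5 (1.15, adjusted p = 0.000497), and Vsir, which encodes a checkpoint receptor reported to bind PSGL-1 (-0.45, adjusted p = 0.00946).

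Among 30 tested regulators known or proposed to act on the 9 genes, 5 rose and 7 fell (median -0.11). Beside this count and those of the marker lists below stand 9.17% higher and 8.82% lower over all genes. Tcf3, which encodes the E protein E2A (-0.93, adjusted p = 3.89e-05), Tox2 (-0.80, adjusted p = 8.01e-06), Mapk7 (-0.80), Ets1 (-0.65) and Lef1 (-0.60) were the largest falls, and Id2, an inhibitor of E proteins (0.82, adjusted p = 0.0145), Maf (0.74), Irf4 (0.70) and Runx3 (0.47) rose with Bcl6. The count of rises was 2 without BCL6-insufficient mouse 1 or wild-type mouse 3. Of 17 Tfh markers 4 rose and 6 fell, Cxcr5 and Bcl6 among them (median -0.05). With limma on log2(TPM + 1) 2 rose, and in repeat 1 alone 2 fell. Beside Tox2 and Cxcr5 the falls of largest size were Izumo1r (-0.80, adjusted p = 0.00232), Angptl2 (-0.57, adjusted p = 0.000961) and Pdcd1. Pdcd1, whose protein was also in the sort gate, was at -0.42 (adjusted p = 0.0042) and Icos at 0.64 (adjusted p = 0.000147). Tnfsf8, which encodes CD30 ligand, rose by 0.47 on the log2 scale (adjusted p = 0.0202). Of 10 T cell markers 2 rose, Thy1 (a mean of 647 against 325 CPM) and Trac (0.55), and 3 fell, Cd4 (-0.34), Cd5 (-0.34) and Lck (-0.33). Mice overlapped for Cd4, and the count of falls was 0 without BCL6-insufficient mouse 2 or wild-type mouse 1 and 1 without wild-type mouse 3. None of 12 tested B cell markers was called by edgeR, 1 was lower at an unadjusted p under 0.05, and DESeq2 called 1 lower. Without wild-type mouse 3, in which B cell transcripts were high, 6 were called higher, and 1 was called lower without BCL6-insufficient mouse 2 or wild-type mouse 1. Lyz2 (2.64, adjusted p = 0.00531) was called among 4 tested myeloid markers, at 16.5, 3.67 and 3.19 CPM against 0.0916, 2.04 and 1.58, Nkg7 (1.54, adjusted p = 0.0494) among 3 of CD8 T, NK and innate cells, and Ikzf2 (0.62, adjusted p = 0.00204) among 5 of regulatory T cells, whose list summed to 262 to 299.6 against 173 to 241 CPM. Ikzf2 made up most of that sum (161 to 187 against 88.4 to 141), whereas Foxp3, the defining factor of regulatory T cells, was lower without overlap (2.36 to 4.32 against 4.58 to 5.78; log2 fold change -0.58, adjusted p = 0.314). DESeq2 called no myeloid or CD8 T, NK and innate lymphoid marker; the edgeR call for Lyz2 was lost without BCL6-insufficient mouse 1, and no marker of CD8 T, NK and innate cells was called without BCL6-insufficient mouse 2 or 3 or wild-type mouse 1 or 2. The part of these levels in the values of the 9 genes was not tested.

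**Figure D5:**
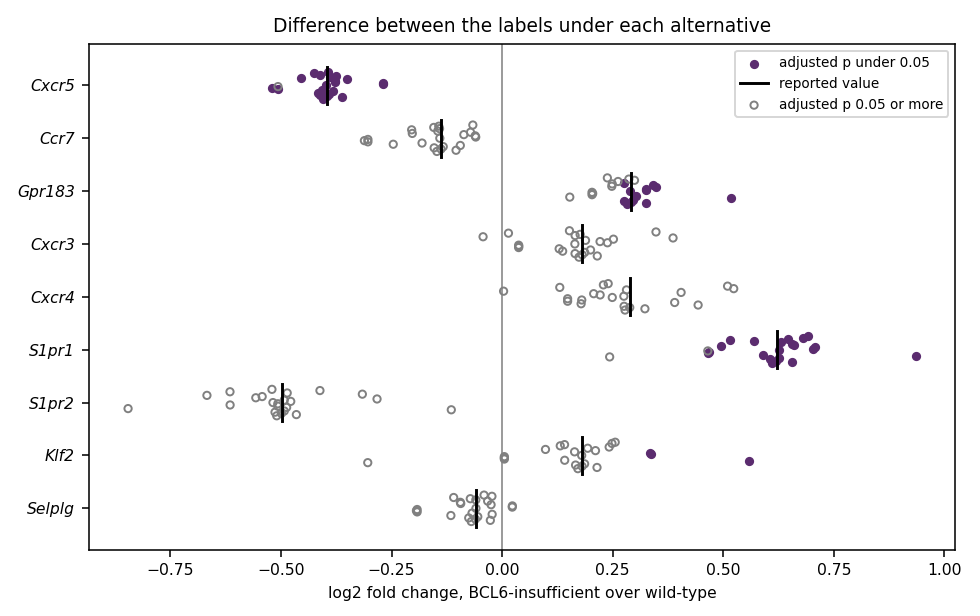
Log2 fold change (x axis, BCL6-insufficient over wild-type) of each gene under each of 23 other ways of processing the data; filled purple, adjusted p under 0.05, open grey, 0.05 or more, black bar, the reported value. Cxcr5 stays below 0 and S1pr1 and Gpr183 above it throughout, whereas Klf2, Cxcr3 and Selplg have values on both sides.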

How the data were processed

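The authors adapted SMART-Seq2, which does not mark strand, aligned the reads to mm10 (GRCm38) with HISAT2 2.2.1 and counted them with HTSeq; they deposited raw counts per gene and TPM for 12 libraries. The annotation, the counting strand and the length behind the TPM are not given in the sources used here. The 9 genes, the gene lists and the alternatives were chosen with earlier results of these data known. Genes named were the 9, the called genes of each list by size (up to 5 in each direction), genes whose role the text needed, and for Cxcr5, Klf2 and called members the 3 genes most alike with at least 10 CPM; exceptions are marked.

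Counts of the 2 repeats of a mouse were summed, and 3 mice were compared with 3 by edgeR 4.0.16 in R 4.3.3 (TMM, filterByExpr with a minimum count of 10, quasi-likelihood test, Benjamini-Hochberg over 12719 genes, threshold 0.05). The standard error came from the log2 fold change and F. The 2 libraries of each mouse differed beyond counting noise (chi-square per gene 6.42 to 16.1). Reads have no molecular identifiers, so depth gives counting precision only. Coordinates came from GENCODE vM21, which held 23801 of the symbols by name and 212 under other symbols, and lacked 548. The scripts were tested on simulated data. Alternatives used DESeq2 1.42.0, limma 3.58.1 (voom, and log2 of TPM plus 1 or 0.1), mgcv 1.9.3 for GC and length trends (99.0% of tested genes had values), other scalings and filters, 1 repeat, the replicate block, and each mouse left out.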

Additional observations from a re-analysis of the deposited data

Results flagged for a closer look

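Klf2 was the one of the 9 genes whose difference in label effect between the technical repeats passed adjustment, at 0.91 on the log2 scale (repeat 2 minus repeat 1, SE 0.193, adjusted p = 0.0397 by edgeR's quasi-likelihood test). The intervals for S1pr1 (0.69) and Gpr183 (-0.36) also left out 0, but these did not pass adjustment. Klf2 went from repeat 1 to repeat 2 upward in 3 of 3 BCL6-insufficient mice and in 0 of 3 wild-type mice. Leaving out 1 mouse at a time gave 0.73 to 1.07, and the call held in 2 of 6 cases. Whether a repeat number marks a sort or run shared between mice is not given in the sources used here, and without that the difference has no common meaning across mice. No library stood apart from the other 5 of its label in any of the 18 groups of 6 libraries searched, by Dixon's criterion; chance flags about 1 group in 20.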

How the results depend on the processing

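Cxcr5 kept its direction in 23 alternatives and its call in 22, S1pr1 in 23 and 21, and Gpr183 in 23 and 13. For single repeats, repeat 1 gave S1pr1 0.24 and Klf2 -0.30, with 1 member called higher, and repeat 2 gave Gpr183 0.15 and Klf2 0.56. TPM in log2(TPM + 1) and log2(TPM + 0.1) gave Gpr183 0.20, Klf2 0.0049 and 1 member called higher; over all genes, log2(TPM + 1) gave Cxcr5 -0.51, S1pr1 0.46 and Gpr183 0.20, with 0 members called higher and 0 called lower (27 and 43 genes in all). Wild-type mouse 2 by repeat 2 gave Gpr183 0.25, and BCL6-insufficient mouse 3 by repeat 2, chosen after seeing the data, 0.24, each with 1 member called higher. GC and length trends removed gave Klf2 0.34, or 0.33 with the replicate block, Selplg 0.023 either way, and 3 members called higher. These fits gave Cxcr5 -0.27 either way, its smallest size over the alternatives, S1pr1 0.70 or 0.71 and Gpr183 0.33 or 0.32. Leaving out 1 mouse gave Cxcr5 -0.46 to -0.35, Gpr183 0.25 to 0.34 (called in 2 of 6), S1pr1 0.52 to 0.68, Klf2 0.10 to 0.25, Cxcr3 -0.043 (without BCL6-insufficient mouse 2) to 0.39, Selplg -0.11 to -0.02, Ccr7 -0.20 to -0.07, S1pr2 -0.67 to -0.32, Cxcr4 0.00 to 0.52, 1 to 2 members called higher, and 0.73 to 1.07 for the Klf2 difference between repeats. Over all alternatives, the genes not called ranged further: Ccr7 from -0.31 to -0.06, S1pr2 from -0.85 to -0.12 and Selplg from -0.19 to 0.02. Causes were not tested.

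Genes called over the whole table, 1166 higher and 1122 lower, came to 547 and 512 in repeat 1, 736 and 710 in repeat 2, 730 and 694 without wild-type mouse 3, and 390 and 915 with log2(TPM + 1). With log2(TPM + 0.1) 374 were called higher and the median of all genes moved from 0.01 to -0.11. The deviations of same-numbered mice correlated at 0.10, -0.03 and 0.04. These values cannot decide whether mice of 1 number shared a sort or a day, which the sources used here do not say. With edgeR, the replicate block gave S1pr1 0.63 (adjusted p = 1.39e-05), Cxcr5 -0.40, Gpr183 0.29 and Klf2 0.18 and moved no call of the 9 genes. Over the whole table it called 1292 genes higher and 1287 lower. Cxcr4 could not be tested with at least 10 counts in every library, and at its depth only large differences would show.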
